A study of Mus musculus with 3 samples.

Results

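TM10 was the group of stromal cells of the mouse iridocorneal angle and limbus that carried Cd34, Clec3b, Pi16 and Ly6c1, and its members were the cells that the authors kept and labelled TM10. There were 549 such cells among the 26008 kept cells. The first control library contributed 194 of them, the second 167 and the Angpt1ΔNC library 188. Droplet libraries were made from the pooled eyes of 2 to 3 mice (4 to 6 eyes) aged 6 weeks. The controls were Angpt1 flox/flox mice without Cre, and Angpt1ΔNC mice were Angpt1 flox/flox and carried Wnt1Cre, which removes Angpt1 from cells of neural crest origin (all 3 pools were of mixed strain). With 2 control libraries and 1 Angpt1ΔNC library, the library and not the cell was the replicate, and nothing here measured the spread between Angpt1ΔNC pools. Values in groups of 3 are given throughout in the order control replicate 1, control replicate 2 and Angpt1ΔNC.

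Fibroblasts that carry Cd34, Pi16, Dpp4 and Ly6c1 are known from the adventitia of vessels and from the fascia of many organs, where they lie outside the specialised cells of the tissue and lay down collagen and elastic fibres. CD34 is a sialomucin of the cell surface, Clec3b encodes tetranectin, a secreted plasminogen-binding lectin, Pi16 encodes a peptidase inhibitor anchored at the membrane, and Ly6c1 is a small surface protein held by a lipid anchor. In the iridocorneal angle the trabecular meshwork filters aqueous humor into Schlemm's canal, and the surrounding stroma is largely derived from the neural crest.

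The TM10 cells held 1261347, 1089567 and 1539274 unique molecular identifiers (UMIs), with medians of 6622, 6645 and 8135 UMIs per cell. No TM10 barcode occurred in more than 1 library. Sex differed between the pools: no TM10 cell of either control had an Xist UMI without a Y-linked one (female-typed), while 53 of the 188 Angpt1ΔNC cells did and 105 had a Y-linked UMI and no Xist (male-typed). Of the typed Angpt1ΔNC cells, 66.5% were male-typed in TM10 (105 of 158, exact 95% confidence interval (CI) 58.5 to 73.8) and 31.3% in the other TM groups (CI 29.1 to 33.7). All intervals of shares cover counting error only.

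The markers were looked up in the labelled cells, as a description and not a check, because the cells were clustered on these genes. A Cd34 UMI was found in 89.2%, 91.6% and 93.1% of TM10 cells, Clec3b in 89.2%, 93.4% and 97.9%, Pi16 in 75.8%, 67.7% and 80.9% and Ly6c1 in 80.4%, 76.6% and 79.3%. In the limbal and corneal epithelium, which should lack Cd34, Clec3b and Pi16 and was sequenced more deeply (medians of 17717, 15168.5 and 15135 UMIs), Cd34 was found in 0.506%, 0.494% and 0.329% of cells, Clec3b in 0.404%, 1.09% and 1.76%, Pi16 in 0.303%, 1.09% and 1.098% and Ly6c1 in 17.4%, 9.98% and 10.9%. At least 3 of the 4 markers were found together in 159 of 194, 136 of 167 and 162 of 188 TM10 cells (82.0%, 81.4% and 86.2%), against 22 of 2609, 64 of 3157 and 11 of 1758 cells of the other TM groups. Only 6, 1 and 0 TM10 cells had none of them.

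As a mean over cells, Cd34 stood at 9.05, 7.96 and 8.42 UMIs per 10,000 in TM10, and the next label of TM1 to TM11 and cluster 13 was cluster 13, at 1.71, 2.25 and 1.88. Clec3b stood at 13.004, 12.4 and 22.8, followed by TM11 at 4.35, 4.22 and 3.71. Pi16 reached 19.997, 13.4 and 26.2, with 5.36, 5.44 and 1.17 in cluster 13 and 3.51, 3.68 and 2.19 in TM7. In the controls Pi16 also ran at 4.12 and 4.43 in TM4. Ly6c1 stood at 7.26, 5.66 and 5.5002 and was below 1 elsewhere, with 0.119, 0.4 and 0.0348 in TM11 and 0.00633, 0.173 and 0.444 in cluster 13. In each library TM10 was the highest of these labels for all 4 genes.

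**Figure D1:**
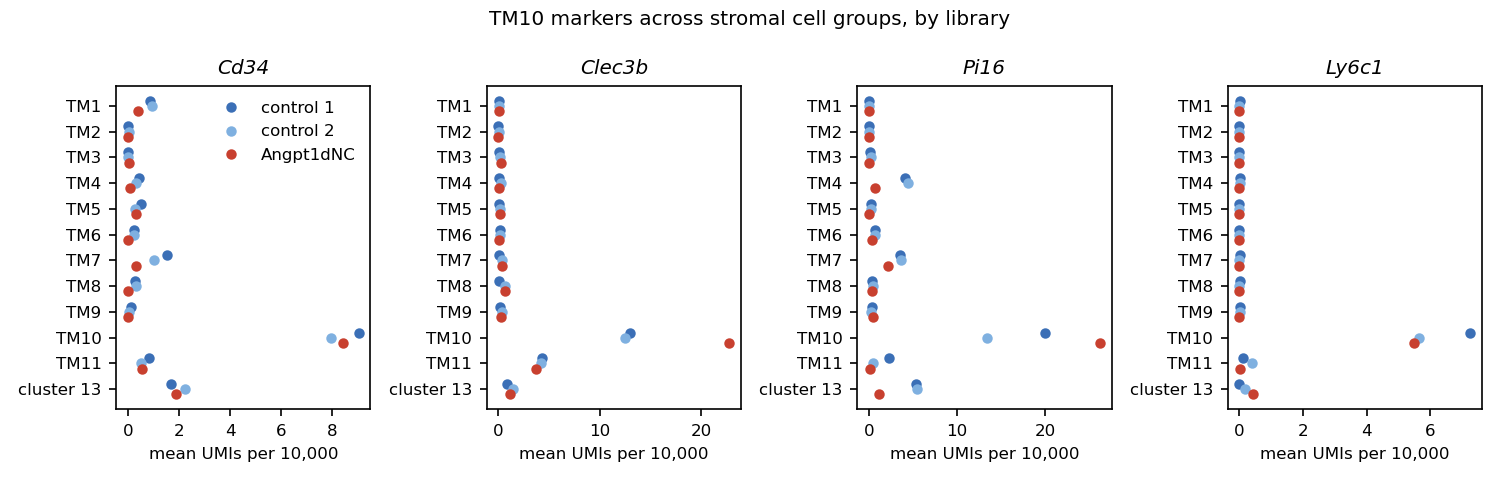
Mean level of the 4 TM10 markers (x axis, UMIs per 10,000) in TM1 to TM11 and cluster 13 (y axis), with a point for each library. TM10 lies to the right of every other label in each panel, and Pi16 has lower levels in TM4, TM7 and cluster 13.

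The 24 genes with the highest ratio of TM10 to the other TM groups in the controls included the markers Ly6c1 (57.7-fold), Clec3b (36.8-fold), Cd34 (14.2-fold) and Pi16 (10.3-fold). These ratios are of mean levels, with 0.1 UMIs per 10,000 added to both, for genes found in at least 0.25 of TM10 cells of each control, and they carry no test because the cells were clustered on these genes. The list ended with C3 at 9.04-fold, and Emilin2 was next at 9.01-fold. Ly6a, the stem cell antigen SCA-1, ran at 32.3, 24.04 and 20.4 UMIs per 10,000 in TM10 and 1.31, 0.895 and 0.564 in the other TM groups. Gsn, encoding the actin-severing protein gelsolin, ran at 156, 188 and 72.2 against 12.1, 9.11 and 10.4. Both were higher in TM10 in every library.

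Of the other leading genes, 7 encode secreted or matrix proteins. Prg4, the lubricating proteoglycan lubricin, ran at 8.83, 9.38 and 4.08 UMIs per 10,000 in TM10 and 0.587, 0.574 and 1.14 in the other TM groups, but at 5.92, 6.59 and 6.45 in cluster 13, above TM10 in Angpt1ΔNC. Tnxb, the matrix glycoprotein tenascin-X, ran at 3.27, 4.28 and 4.96 against 0.236, 0.269 and 0.225. Col3a1, the chain of type III collagen, ran at 42.97, 52.4 and 82.5 against 4.56, 4.69 and 4.34, but TM11 was close to TM10 in control replicate 1, with 43.6, 33.8 and 24.6. Epyc, a small leucine-rich proteoglycan, Sfrp4, a secreted Wnt antagonist, Tppp3, Cadm3, the decay-accelerating factor Cd55, the chemokine scavenger Ackr3 and the complement components C3 and C7 also belonged to the list. Epyc was higher in cluster 13 (5.904, 3.54 and 2.42) than in TM10 (2.15, 3.22 and 1.19) in every library, and Sfrp4 was so in control replicate 1 (3.104, 0.41 and 0.0489 against 2.91, 2.96 and 1.76).

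The other 7 leading genes were Ifi204, Ifi207, Ifi202b, Ifi205, Ifi203, Ifi211 and Mndal, members of the Ifi200 family of DNA-sensing proteins. They lie side by side on chromosome 1 of GRCm38, from 173723427 (Ifi207) to 174031810 (Ifi205), and resemble each other in sequence, so reads could be split among them by the counting. Ifi204 ran at 3.96, 4.39 and 3.22 UMIs per 10,000 in TM10 and 0.0946, 0.0555 and 0.0247 in the other TM groups. Of 18 measured interferon-stimulated genes outside this family, 17 had a ratio below 1, with a median of 0.598, and the exception was Ifi27l2a at 2.29. Of the transcription factors on a list of 27, Osr2 (8.49-fold), Creb5 (8.24-fold), Ebf1 (7.64-fold) and Ebf2 (6.67-fold) had the highest ratios.

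Across 17840 genes found in at least 10 control cells, the TM10 profile was closest to those of TM7 (Pearson's r = 0.934 in control replicate 1 and 0.931 in control replicate 2), cluster 13 (0.930 and 0.927), TM4 (0.929 and 0.928) and TM11 (0.921 and 0.931). The order among them is a description, since the profiles share libraries, and the 27 and 46 TM11 cells of the controls make that mean noisier. For each list, markers of other cell types summed to less in TM10 than in the other TM groups, with exceptions in single libraries. These were melanocyte markers in control replicate 2 (1.29 against 0.983) and leukocyte markers in Angpt1ΔNC (0.48 against 0.452). Trabecular markers were not low: Myoc was found in 40.4%, 43.3% and 15.1% of TM10 cells after thinning to 2000 UMIs. The 7 trabecular markers summed to 10.8, 10.6 and 5.31 UMIs per 10,000 in TM10, mostly Myoc, against 30.3, 37.02 and 20.9 in the other TM groups. The 6 keratocyte markers summed to 3.58, 3.67 and 2.88 against 17.9, 18.1 and 17.5, the 6 endothelial markers to 0.537, 0.433 and 0.563 and the 6 leukocyte markers to 0.221, 0.252 and 0.48. Summed levels were 1.25, 1.23 and 2.502 for 6 corneal endothelial markers, 1.601, 1.26 and 1.004 for 5 uveal stroma markers, 0.564, 0.562 and 0.779 for 6 epithelial, 0.67, 1.29 and 0.77 for 5 melanocyte, 0.0623, 0.0901 and 0.0828 for 5 Schwann cell, 0.919, 0.754 and 0.319 for 6 smooth muscle and 0.165, 0.185 and 0.0549 for 5 pigment and ciliary epithelial markers. Ptprc, which defines leukocytes, was at 0 in TM10 of control replicate 1 and Angpt1ΔNC. The leukocyte, corneal endothelial, epithelial and endothelial sums were higher in Angpt1ΔNC than in both controls. The trabecular, keratocyte, uveal stroma, smooth muscle and pigment and ciliary epithelial sums were lower than in both. The part of these cell types in the differences below was not tested.

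TM10 was not uniform. Clustering its cells without the genes that differed between genotypes gave 2 subgroups, named here by their leading genes. The Pi16-leading subgroup made up 36.1%, 24.6% and 54.3% of TM10 cells, or 70, 41 and 102 cells, and the Mgp-leading subgroup held the rest. The exact intervals ran from 29.3 to 43.3% and from 18.2 to 31.8% in the controls and from 46.8 to 61.5% in Angpt1ΔNC. These intervals cover the counting of cells in 1 Angpt1ΔNC and 2 control libraries, not the spread between pools, and the controls themselves differed. Pi16-leading cells were deeper, with medians of 8135, 7688 and 9071 UMIs against 5797.5, 6147 and 6847.5 in Mgp-leading cells. In Angpt1ΔNC, 76.7% of typed Pi16-leading cells were male-typed, against 54.2% of Mgp-leading ones. The part of depth and sex in the shares was not tested. When variable genes were chosen over all cells together (a setting chosen after seeing the data), the Pi16-leading shares were 51.03%, 46.1% and 73.4%, so the line between the subgroups moved with the setting while Angpt1ΔNC stayed the highest.

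Genes of the Pi16-leading cells included Dpp4, a surface peptidase, at 1.71, 1.58 and 1.42 UMIs per 10,000 there and 0.116, 0.147 and 0.0749 in the Mgp-leading cells. Pi16 itself ran at 40.01, 37.96 and 38.2 against 8.7002, 5.405 and 11.9, and Fbn1, the fibrillin of microfibrils, at 11.7, 19.4 and 6.51 against 2.39, 4.24 and 2.59. Pcsk6, a proprotein convertase, ran at 2.21, 3.77 and 2.41 against 0.141, 0.231 and 0.226. Each was higher in the Pi16-leading cells of every library. Mgp, the inhibitor of calcification matrix Gla protein, ran at 27.6, 23.8 and 16.8 in the Mgp-leading cells and 3.45, 3.35 and 1.55 in the Pi16-leading ones. Smoc2, a secreted calcium-binding matrix protein, ran at 7.44, 7.21 and 1.92 against 0.121, 1.18 and 0.642, and Cpxm2 at 4.598, 4.26 and 1.33 against 0.0923, 0.199 and 0.0166. Cd34 was present in both, at 13.1, 12.7 and 10.3 in the Pi16-leading and 6.74, 6.401 and 6.19 in the Mgp-leading cells. These levels carry no test, since the subgroups were made from the same cells.

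**Figure D2:**
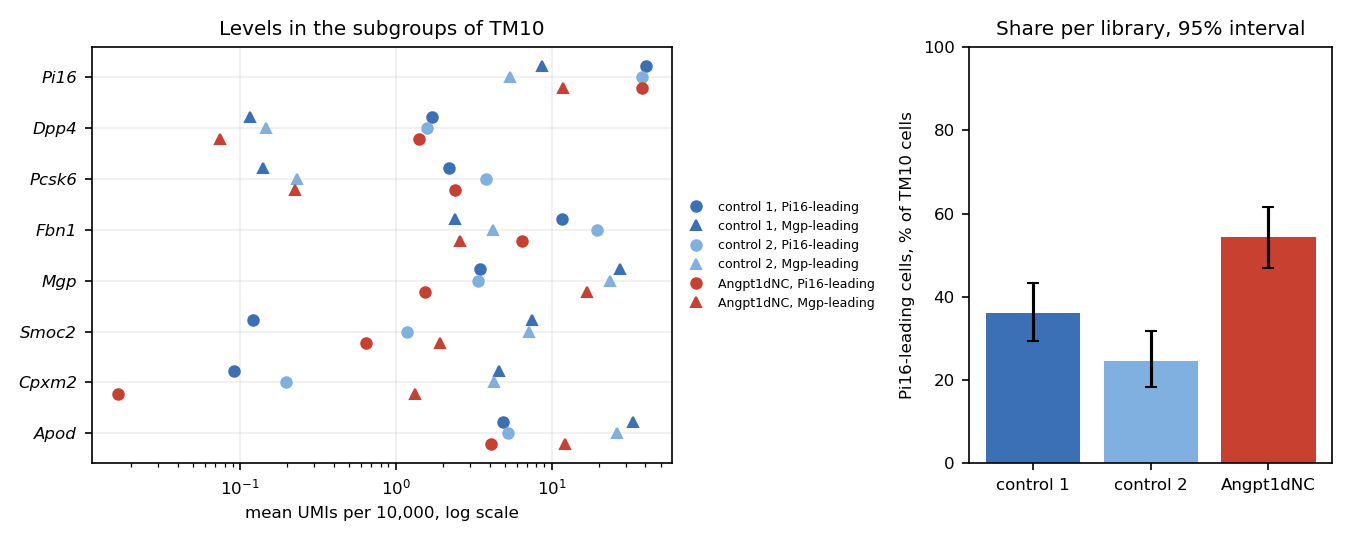
Left, mean level (x axis, UMIs per 10,000, log scale) of 8 genes in the Pi16-leading (circles) and Mgp-leading (triangles) cells of TM10, coloured by library. Right, Pi16-leading cells as a percentage of TM10 cells per library with exact 95% intervals, at 54.3% in the Angpt1ΔNC library.

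Angpt1, the ligand of the receptor TEK and the gene that the Cre removes (chr15:42424723-42676977, GRCm38, minus strand), was found in 20.1% of TM10 cells of the first control (39 cells, exact interval 14.7 to 26.4%). The second control had 30 such cells (17.96%, exact interval 12.5 to 24.6%). In Angpt1ΔNC it was found in 0 of 188 cells (exact interval 0 to 1.94%), where a limit of 3 counts of the total would be 1.596%. Epithelial cells gave a background of 0.303%, 0.494% and 0%. Counted as RNA, 52 UMIs in each control stood against 0 in Angpt1ΔNC, at least 21.96-fold lower with a floor of 3 UMIs for that library.

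As a share of all kept cells, TM10 was 2.14% (CI 1.85 to 2.46), 1.64% (CI 1.41 to 1.91) and 2.78% (CI 2.398 to 3.196). As a share of TM1 to TM11 cells it was 6.92% (CI 6.01 to 7.92), 5.02% (CI 4.31 to 5.82) and 9.66% (CI 8.38 to 11.1). The controls differed from each other, and genes that set TM10 apart, Clec3b among them, differed between genotypes, so these shares stand side by side with no test. In bulk sums of TM10 cells, fewer cells of a kind and less RNA per cell cannot be told apart.

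To find which genes differed between genotypes within TM10, UMIs were summed over its cells per library and tested with edgeR's quasi-likelihood test (Benjamini-Hochberg adjusted p under 0.05). Of 8527 genes tested, 986 were called (11.6%), with 491 higher (5.76%) and 495 lower (5.81%) in Angpt1ΔNC. The median log2 fold change over all genes was -0.02. This fit had 1 residual degree of freedom and took the lone Angpt1ΔNC library to vary as the controls did, and DESeq2 called 160 of the 5221 genes it gave an adjusted p (3.06%), all of them among the 986. The pools were also unlike in sex and in their share of Pi16-leading cells. Male-typed cells alone gave 902 calls of 7752 tested (11.6%), of which 757 were among the 986, and the subgroups alone gave 553 of 6447 for the Pi16-leading cells (8.58%) and 483 of 6848 for the Mgp-leading cells (7.05%).

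Among the named genes higher in Angpt1ΔNC, of which 13 are described, were the elastin gene, a matrix protease and several detoxifying enzymes. Levels below are counts per 1000000 UMIs (CPM), scaled by edgeR's TMM factors. Igfbp2, a binding protein of insulin-like growth factors, ran at 64.1, 116 and 939 CPM (log2 3.401 ± 0.23 (SE), adjusted p = 3.12e-32). Angpt1ΔNC was far above both controls, of which the second was the higher.

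Eln, which encodes elastin, ran at 201, 119.6 and 1221 CPM (log2 2.92 ± 0.22 (SE), adjusted p = 1.67e-26), and the protease stromelysin-1, Mmp3, at 313, 320.4 and 1879 (log2 2.57 ± 0.22 (SE), adjusted p = 8.23e-22). Foxc2, a forkhead transcription factor known from lymphatic valves and the anterior segment, ran at 26.7, 21.999 and 171 (log2 2.801 ± 0.25 (SE), adjusted p = 9.13e-21). Angpt1ΔNC lay above both controls for each. Phldb2 (9.91, 14.3 and 146), the transporter Slc16a6 (15.3, 6.695 and 149) and Ifi205 (197, 177 and 1105) rose as well, with log2 changes of 3.603, 3.704 and 2.56. Reads of Ifi205 could be split with its Ifi200 neighbours, of which Ifi202b, Ifi207 and Mndal fell and Ifi211 rose, so its separate count is uncertain.

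The remaining 6 were enzymes of detoxification and alcohol metabolism. Gsta4, a glutathione S-transferase, ran at 198, 142 and 895 CPM (log2 2.39 ± 0.22 (SE), adjusted p = 3.15e-20). Cyp2f2, a cytochrome P450, ran at 33.6, 38.3 and 328 and the alcohol dehydrogenase Adh7 at 22.1, 6.695 and 129.96, with log2 changes of 3.195 and 3.099. Gsta1, Gsta2 and Gm3776 lie together on chromosome 9, and Gm3776 shares 99.5% of its transcript bases with Gsta1, so their separate counts are uncertain. Their summed level was 56.4, 13.4 and 867 CPM, again highest in Angpt1ΔNC, with control replicate 1 above control replicate 2. DESeq2 did not call Gsta1, Gsta2 or Adh7, with adjusted p of 0.424, 0.172 and 0.233.

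**Figure D3:**
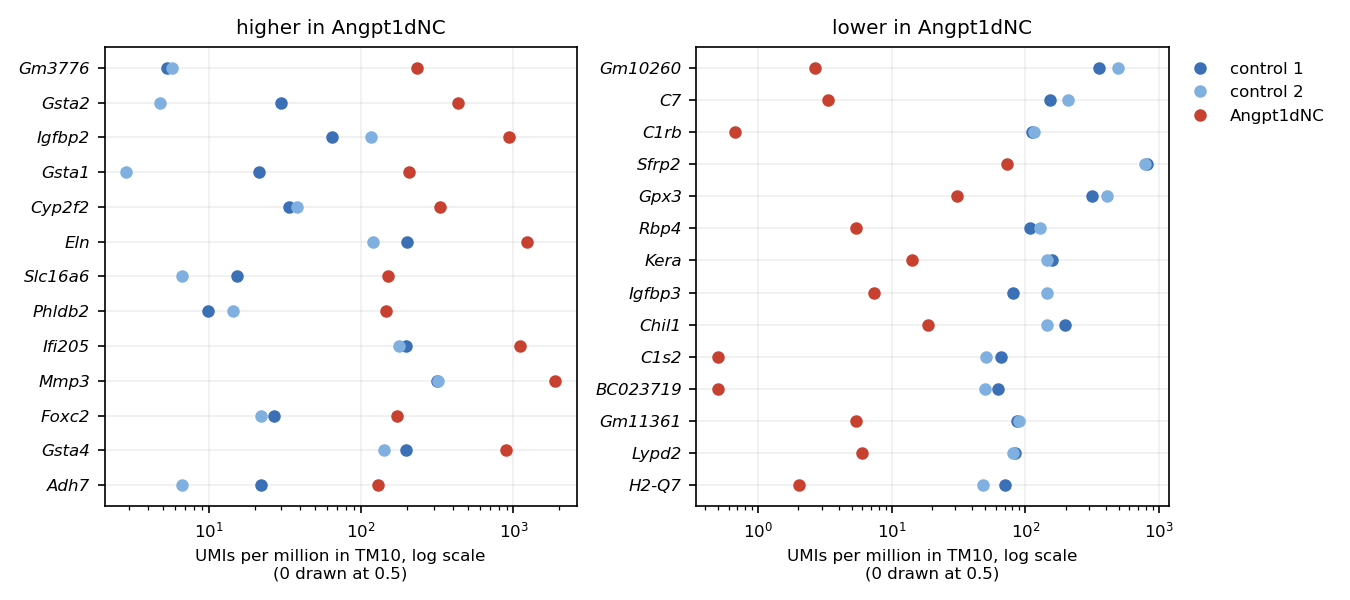
Level in TM10 (x axis, CPM, log scale, 0 drawn at 0.5) of 13 named genes higher and 14 lower in Angpt1ΔNC, with a point for each library. Angpt1ΔNC lies outside the range of both controls for each gene, as the rule for naming them required.

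Among the 14 named genes lower in Angpt1ΔNC, several encode secreted proteins. Sfrp2, a secreted Wnt antagonist, ran at 817, 784 and 72.3 CPM (log2 -3.47 ± 0.28 (SE), adjusted p = 2.67e-24). The size of its fall depended on the cells taken, with log2 changes of -5.67 in male-typed cells and -0.998 (adjusted p = 0.0392) in cells with no UMI of the non-stroma marker lists. Gpx3, the secreted glutathione peroxidase, ran at 313, 410.3 and 30.8 (log2 -3.55 ± 0.29 (SE), adjusted p = 4.32e-24), and C7, a component of the membrane attack complex, at 152, 210.4 and 3.35 (log2 -5.71 ± 0.40 (SE), adjusted p = 1.00e-29). C7 held 199, 220 and 5 UMIs, so its level in Angpt1ΔNC rests on few molecules.

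Rbp4, the carrier of retinol, ran at 109, 128 and 5.36 CPM (log2 -4.44 ± 0.37 (SE), adjusted p = 1.61e-22). Igfbp3 ran at 80.8, 145 and 7.37, opposite in direction to Igfbp2. Kera, the keratan sulfate proteoglycan keratocan of the cornea, ran at 159, 145 and 14.1 and Chil1, a chitinase-like protein, at 199.8, 146 and 18.8, with log2 changes of -3.43 and -3.21. Kera and Chil1 are also on the keratocyte and trabecular lists. Of the members of these lists, Kera and Chil1 included, 3 of 6 and 2 of 5 tested fell and 1 and 0 rose. Over all genes tested, 5.81% fell and 5.76% rose. Lypd2 ran at 83.9, 81.3 and 6.03. All stood below both controls in Angpt1ΔNC.

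The other 6 genes that fell have close copies in the genome, and their separate counts are uncertain, so the counts of the copies are given too. Gm10260 (chr13:97760072-97760632) and Gm11361 (chr13:28257528-28258134) are copies of the ribosomal protein gene Rps18 (chr17:33951999-33956001), with 99.1% and 99.3% of the aligned transcript bases identical. The stretch of 60 coding bases in which Gm10260 and Rps18 differ most is shown, from GENCODE M21 transcripts, because it shows how little separates reads of the 2 genes; capitals mark the 2 bases that differ.
Gm10260: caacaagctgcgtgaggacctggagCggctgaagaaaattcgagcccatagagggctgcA
Rps18: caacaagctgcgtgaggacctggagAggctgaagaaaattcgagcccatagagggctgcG
Gm10260 held 466, 515 and 4 UMIs and Gm11361 held 113, 93 and 8, while Rps18 held 974, 862 and 3134. Their sum ran at 1184, 1406 and 2107 CPM, highest in Angpt1ΔNC, so the copies and the summed gene group moved in opposite directions.

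The complement proteases C1rb and C1s2 also have copies. C1rb shares 97.9% of aligned bases with C1ra, and C1rb held 146, 122 and 1 UMIs while C1ra held 118, 62 and 243. Summed, C1r ran at 201, 176 and 163 CPM, with Angpt1ΔNC still the lowest but close to the controls. C1s2 shares 95.95% with C1s1 and held 86, 53 and 0 UMIs, at least 29.3-fold lower, but the summed pair ran at 207, 134 and 288. BC023719, which shares 96.4% with A930015D03Rik, held 82, 52 and 0 UMIs (at least 28.3-fold lower). Summed with that copy it ran at 81.6, 77.5 and 10.05 CPM, still well below both controls in Angpt1ΔNC. The class I gene H2-Q7 held 93, 50 and 3 UMIs, 30.2-fold lower with a counting interval of 10.1 to 148. Its closest gene, H2-Q10, held only 3, 1 and 0 UMIs.

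The named differences were also found in both subgroups. These genes were picked from all TM10 cells, subgroups and male-typed cells included, so finding them again is a description and no separate support. Of all genes tested, 8.58% were called in the Pi16-leading cells, 7.05% in the Mgp-leading cells and 11.6% in male-typed cells. All 14 genes that rose were called higher in the Pi16-leading and in the Mgp-leading cells on their own. Of the genes that fell, 13 of 13 tested were called in the Pi16-leading cells and 14 of 14 in the Mgp-leading cells. Eln ran at 3.698, 1.63 and 14.2 UMIs per 10,000 in the Pi16-leading and 0.51, 0.88 and 7.96 in the Mgp-leading cells. In male-typed cells alone all 28 were called. Within Angpt1ΔNC, male-typed and female-typed TM10 cells stood at 8.201 and 8.099 UMIs per 10,000 for Gsta4, but at 0.232 and 2.59 for Sfrp2, 1.86 and 13.7 for Ccl2 and 15.1 and 28.997 for Mmp3.

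The markers and leading genes of TM10 did not move as 1 group. Cd34 was not called, at 936, 844 and 868 CPM (log2 -0.04 ± 0.23 (SE), adjusted p = 0.955). Clec3b rose, at 1326, 1373 and 2438 (log2 0.85 ± 0.23 (SE), adjusted p = 0.00522), Pi16 ran at 2154, 1550.4 and 2943 and missed the threshold (log2 0.67 ± 0.24 (SE), adjusted p = 0.0533), and Ly6c1 ran at 734, 566 and 606 (adjusted p = 0.847). Of the 24 leading genes 5 rose, 10 fell and 9 were not called; they were chosen by their control levels, so the balance between directions carries no weight.

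The lists that follow are given beside 5.76% higher and 5.81% lower of all genes tested. They were chosen with earlier results of these data known, so their counts are a description and no test of a list. Among the collagen chains, 4 rose and 4 fell of 17 tested (median log2 0.16). Col3a1 rose, at 4407, 5637 and 8758 CPM (log2 0.802), as did Col1a2 (log2 0.82), Col5a2 (0.67) and Col18a1 (0.94). Col15a1, of the basement membrane zone, fell, at 51.1, 103 and 17.4 (log2 -2.12), with Col4a1 (-1.13), Col8a1 (-1.91) and Col12a1 (-1.49). Of the elastic fibre genes, 5 rose and 2 fell of 19 tested (median 0.22). Beside Eln, the microfibril protein Mfap4 (276, 408 and 979) and the fibulin Efemp1 (326, 208 and 785) rose, while Fbn1 ran at 641, 912 and 529 and was not called.

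In the proteoglycan list 1 rose and 7 fell of 16 tested, against 5.76% higher and 5.81% lower of all genes (median -0.67). Prg4 fell, at 855, 1102 and 450.2 CPM (log2 -1.12), as did Fmod, fibromodulin, at 38.9, 127 and 14.1, where control replicate 2 was above control replicate 1. Omd, osteomodulin, rose (75.5, 95.6 and 213), and decorin, Dcn, was not called (13073, 15015 and 15614). Of the other matrix genes, 3 rose and 7 fell of 18 tested. Postn, the matricellular protein periostin, rose, at 361, 209 and 1198 (log2 2.07 ± 0.22 (SE), adjusted p = 1.93e-15). Smoc2 (358, 520.3 and 119), Gsn (14477, 19155 and 7249) and Svep1 (69.4, 123 and 32.8), a large adhesion protein, fell. Among proteases and inhibitors 2 rose and 2 fell of 18 tested, and among surface proteins 3 rose and 4 fell of 18 tested. Both stand beside 5.76% higher and 5.81% lower of all genes. Of the surface proteins, Thy1 (83.1, 131 and 234) was higher and the protein C receptor Procr (404, 311 and 64.98) lower.

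Most of the chemokines and cytokines fell: 11 of 15 tested fell and 0 rose, with a median log2 change of -1.23, against 5.81% of all genes lower and 5.76% higher. Ccl2, which attracts monocytes, ran at 1865, 2791 and 616 CPM (log2 -1.92 ± 0.27 (SE), adjusted p = 1.18e-09). Cxcl14 ran at 138, 133 and 23.4, Ccl7 at 1046, 1665 and 442, Ccl11 at 299, 454 and 141 and the alarmin Il33 at 421, 271 and 99.8, all below both controls in Angpt1ΔNC. Ccl8 (48.8, 38.3 and 62.97) and Csf1 (394, 441 and 621) were not called.

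Immediate early genes, which respond to stress during dissociation as well as to signals in the tissue, were in part lower too: 6 of 12 tested were lower and 0 higher, against 5.76% higher and 5.81% lower of all genes (median -0.84). Fos ran at 1511, 1977 and 430.1 CPM and Jun at 647, 595 and 222, while Jund (2354, 2296 and 2258) and Ier2 (377, 317 and 255) were not called. Of 11 heat shock genes, Hspa1a and Hspa1b fell and the other 9 were not called. The part of dissociation in these differences was not tested.

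Wnt and BMP modulators split. Beside Sfrp2, Fst, the activin-binding protein follistatin, fell (564, 799.6 and 253 CPM), as did Sfrp1. Wnt2 rose (135, 61.2 and 419), as did Dkk2 (92.3, 67.9 and 171), Rspo1 and Wnt5a. Over the whole list 5 rose and 3 fell of 15 tested, against 5.76% higher and 5.81% lower of all genes (median -0.43). Of the insulin-like growth factor genes, Igfbp2 rose and Igf1 (304, 271 and 145), Igfbp3, Igfbp4 and Igfbp7 (1536, 2048 and 621) fell, out of 7 tested.

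In the complement list 2 rose and 5 fell of 12 tested, against 5.76% higher and 5.81% lower of all genes; the same shares apply to the other lists of this paragraph. C3, the central component, ran at 152, 189 and 77.04 CPM and fell below both controls; the 2 that rose were C1ra and C1s1, whose copies are described above. Of the Ifi200 genes tested, Ifi205 and Ifi211 rose and Ifi202b, Ifi207 and Mndal fell. Of 16 interferon-stimulated genes tested, Ifi27l2a (363, 212 and 1039.7) and Bst2 rose, Irf7 fell and 13 were not called. In the angiopoietin and VEGF list 4 rose and 4 fell of 12 tested, again against 5.76% higher and 5.81% lower of all genes (median log2 -0.38). Vegfc, a ligand for lymphatic growth, rose (21.4, 16.3 and 81.7), with Vegfa (226, 190.3 and 330.3), Angptl2 and Tek, and Angptl1 (194, 264 and 51.6) and Angptl7 (24.4, 61.2 and 3.35) fell beside Angpt1 and Svep1. Tek is also on the endothelial list, of which 1 of 2 tested members rose, and Angptl7 is on the keratocyte list. The part of endothelial cells or keratocytes in these changes was not tested. Among the transcription factors, 4 rose and 6 fell of 22 tested: Creb5 (156, 159.7 and 499.7) rose with Foxc2, Foxp1 and Tfap2b, Meox1 (48.04, 42.1 and 5.36), Meox2 (56.4, 62.2 and 10.7) and Ebf2 (64.8, 65.04 and 16.7) fell with Klf2, Prrx1 and Tbx15, and Ebf1 was not called (475, 555 and 563). Of 9 glucocorticoid-responsive genes tested, Nr3c1, the receptor itself, fell (114, 115 and 61.6) and the other 8 were not called. Of the sex-linked genes, Xist alone was called, with 0, 0 and 298 CPM.

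Whether the genotype difference in TM10 differed from that of the pooled other TM groups was tested with a term for cell group by genotype, TM10 against the other TM groups of the same libraries. Of 13256 genes tested, 615 were called (4.64%), and 393 of them were among the 986. Sfrp2 fell in TM10 (log2 -3.47) and stood at 1.904, 1.87 and 2.95 UMIs per 10,000 in the other TM groups, a difference of -3.96 ± 0.19 (SE), adjusted p = 2.10e-21. Gpx3 likewise ran at 0.455, 0.559 and 0.982 there, a difference of -4.59 ± 0.24 (SE), adjusted p = 1.57e-20. Igfbp2 remained below the other TM groups (30.7, 35.5 and 54.6) despite its rise in TM10 to 9.87 (difference 3.02 ± 0.16 (SE), adjusted p = 1.34e-20).

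Ptn, the growth factor pleiotrophin, ran at 6.84, 5.72 and 2.599 UMIs per 10,000 in TM10 and 4.62, 5.93 and 16.9 in the other TM groups, and Ccl2 at 22.4, 25.8 and 5.12 and 25.3, 23.1 and 43.7. Apod, a lipid-binding lipocalin, ran at 22.96, 20.98 and 7.75 and 6.88, 10.1 and 16.03. Its log2 change within TM10 was -0.15 in the Pi16-leading and -1.25 in the Mgp-leading cells. In all 3, Angpt1ΔNC was below both controls in TM10 and above them in the other TM groups. Pi16 did the opposite, at 19.997, 13.4 and 26.2 in TM10 and 1.55, 1.5001 and 0.492 elsewhere (difference 2.31 ± 0.16 (SE), adjusted p = 1.27e-15). Mmp3 rose in both (other TM groups 2.21, 2.48 and 10.7, difference 0.697 ± 0.16 (SE), adjusted p = 0.00211), and for Adh7 the difference was 0.79 ± 0.36 (SE), adjusted p = 0.295. For Gm10260, which fell in both, it was 0.33 ± 0.66 (SE), adjusted p = 0.936. The make-up of the other TM groups differed between the libraries: TM7 and TM8 made up 48.2%, 42.8% and 18.7% of their cells. With each cluster drawn to the same number of cells in every library (a setting chosen after seeing the data), 448 genes were called, 416 of them among the 615. The difference was then -2.702 for Ptn, -2.699 for Ccl2, -1.82 for Apod and 2.04 for Pi16, and the changes within the other TM groups were 1.200, 0.81, 0.39 and -1.36 (adjusted p = 2.21e-05, 0.00181, 0.195 and 1.76e-05 by edgeR). These tests share libraries with the genotype test and are not independent of it.

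**Figure D4:**
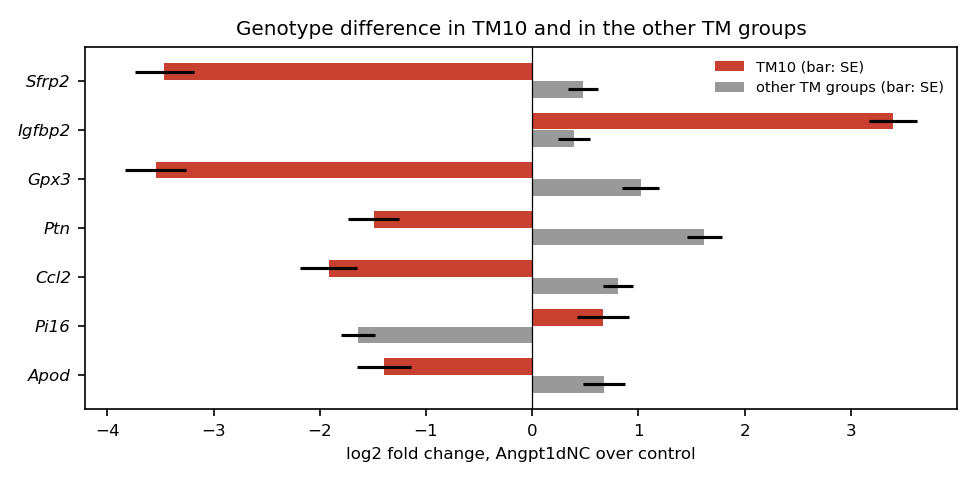
Log2 fold change of Angpt1ΔNC over control (x axis) in TM10 and in the other TM groups for 7 of the 8 genes with the smallest adjusted p for the difference, with standard errors as bars. Sfrp2, Gpx3, Ptn, Ccl2 and Apod lie below 0 in TM10 and above it elsewhere.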

How the data were processed

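The authors counted UMIs per gene and cell with Cell Ranger and the mm10 build (the labels name version 2.1.1 and the matrix headers 3.0.2) and labelled cells in Seurat 3.1.3 after keeping those with at least 200 genes, 1000 UMIs and at most 10% mitochondrial UMIs and removing doublets. The deposited counts and cluster labels were used; 3467 columns of integrated values were not. Members and gene lists were chosen with earlier results of these data known. Levels are means of UMIs per 10,000, and shares have exact Clopper-Pearson 95% intervals. TM10 counts were summed per library and tested with edgeR 4.0.16 (R 4.3.3, filterByExpr, TMM), with DESeq2 1.42.0 as an alternative. The edgeR tests were checked on simulated data and the DESeq2 test was not. Named genes are the 24 of highest ratio, the 14 higher and 14 lower with the smallest adjusted p past a log2 change of 1 and outside the control range (sex-linked genes and Angpt1 apart), and the 8 with the smallest adjusted p for the difference between groups. Some genes of these rules and lists are not reported here. Subgroups came from scanpy 1.11.5 and leidenalg 0.10.2 (1500 variable genes, 15 components, resolution 0.2). Transcripts and positions are from GENCODE M21 (GRCm38). Python was 3.11.15, and figures used matplotlib 3.10.9. Libraries pool 2 to 3 mice. The p-values rest on the spread between the 2 control pools, with the spread of each gene drawn towards that of other genes. They are therefore not a measure of a gene's own spread, and the lone Angpt1ΔNC pool was taken to vary likewise. Standard errors of edgeR log2 changes were computed as the absolute log2 change over the square root of the F statistic.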

Additional observations from a re-analysis of the deposited data

Results flagged for a closer look

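The genotype difference in TM10 differed from that in the other TM groups for 615 genes by edgeR's quasi-likelihood test of the cell group by genotype term. The log2 difference between the groups was -3.96 for Sfrp2, -4.59 for Gpx3, -3.14 for Ptn, -2.72 for Ccl2 and -2.11 for Apod. It was 3.02 for Igfbp2 and 2.31 for Pi16. Pi16 was not called in TM10 as a whole. Its log2 difference between genotypes was 0.13 within the Pi16-leading cells and 0.77 within the Mgp-leading cells. Pi16 was not left out of the clustering and the subgroups were named by its level, so these differences are a description and no test. The part of the sex make-up of the pools in the differences between groups was not tested.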

How the results depend on the processing

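The count of 986 genes called between genotypes became 160 with DESeq2, 282 in cells with no UMI of the non-stroma marker lists (4053 genes tested, 51, 48 and 35 cells), 553 in the Pi16-leading and 483 in the Mgp-leading subgroup, the last 2 settings chosen after seeing the data and resting on fewer cells. The other 6 settings gave 902 to 986, and the 615 genes of the group by genotype term became 521 with DESeq2 size factors, 651 with no filter on low counts and 448 with equal cluster numbers (added after seeing the data). The share of called genes that were higher was 49.8% in the main test and 40.6% with DESeq2. The ratio of the TM10 share in Angpt1ΔNC to the control mean, a description with no test, was 1.47 and ranged from 1.30 to 1.69 without either control. The control mean of TM10 cells with an Angpt1 UMI, 19.0%, was 5.56% after thinning to 2000 UMIs, and the Pi16-leading share of 30.3% became 48.6% with variable genes chosen over all cells together. No direction reversed for the named genes. Their fold moved by over 1.5 times for 19 of 30 in cells with no non-stroma UMI, 18 of 30 in the Pi16-leading, 15 of 31 in the Mgp-leading and 8 of 31 in the male-typed cells; across settings Ccl2 ran from -3.54 to -1.18, Ptn from -2.78 to -0.74 and Chil1 from -5.30 to -1.97 on the log2 scale. Among them, Gsta1, Gsta2 and Adh7 lost their call with DESeq2, Lypd2 without cells holding other markers and Apod in the Pi16-leading cells, and Pi16 gained one in 5 settings. The Mgp-leading cells were among these settings, where the call is no test because the subgroups were named by Pi16 level. Without control replicate 1 the log2 change was 6.46 for Gsta2, 6.11 for Gsta1, 4.46 for Slc16a6 and 4.26 for Adh7, and without control replicate 2 it was 3.85, 3.26, 3.28 and 2.55. No paired analysis was possible because the labels pair no control pool with the Angpt1ΔNC pool and there was only 1 Angpt1ΔNC library.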
